A study of Mus musculus with 2 samples.

Results

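Dlx1, Dlx2, Dlx3, Dlx4, Dlx5, Dlx6, Lhx6, Lhx8 and Nkx2-1 are homeobox genes, and several of them specify the inhibitory interneurons of the forebrain. These 9 genes were taken by symbol from the 21938 protein-coding genes of the GENCODE vM21 annotation, and their chromatin was read from DNase-seq, which sequences the ends that the nuclease DNase I leaves when it cuts DNA not wrapped in nucleosomes. The tissue was frontal cortex of female mice aged 25 days, of the strain B6CASTF1/J, a first-generation cross of C57BL/6J with the wild-derived CAST/EiJ. It formed 1 group of 2 libraries, replicate 1 and replicate 2, with no treatment and no second condition. The labels list a separate biosample for each library under a shared donor identifier, so an SD below is the spread between 2 samples, which may not be a spread between animals. In each library the 9 genes were examined in 6 loci, which run from the first to the last annotated base of Dlx1 with Dlx2, Dlx5 with Dlx6, Dlx3 with Dlx4, Lhx6, Lhx8 and Nkx2-1, with 20 kb on either side.

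Dlx genes lie as convergently transcribed pairs and encode transcription factors that act in the ganglionic eminences of the embryo, where cortical interneurons are born before they migrate to the cortex. Nkx2-1, an NK-2 homeodomain factor, sets the identity of the medial ganglionic eminence and switches on the LIM-homeodomain genes Lhx6, which is kept on in interneurons that make parvalbumin or somatostatin, and Lhx8, which specifies cholinergic neurons of the basal forebrain. In the mature cortex Nkx2-1 is silent in most interneurons, while Dlx1, Dlx2, Dlx5 and Dlx6 are kept on in many of them, and Dlx3 is known mainly from skin, tooth and placenta.

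The authors listed 85603 peaks in replicate 1 and 87847 in replicate 2, each with a read-depth normalised signal that is the authors' own and is called the value of the peak here. Its scale is not stated, and the median peak had a value of 0.627 in replicate 1 and 0.679 in replicate 2. A promoter peak is a peak that overlaps the 1 kb on either side of any annotated transcription start site (TSS) of a gene. Footprints are short stretches inside open chromatin that the authors called as protected from cutting, with a median width of 9 bp in both libraries. A further deposited table gives a false discovery rate for the rate of cutting wherever it was at most about 0.05, so a base absent from it did not reach that rate.

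Few of these genes had promoter peaks in both libraries, and the promoter peaks found were weak beside those of other genes. Of the 9 genes, 3 had promoter peaks in both libraries (Dlx1, Dlx5 and Lhx8), against 61.5% of all protein-coding genes. A listed false discovery rate at the promoter was as rare, with 3 of the 9 in both libraries against 62.3% of all genes, and 3 in neither against 33.4%. A promoter peak in only 1 library was found for 3 (Dlx2, Dlx4 and Dlx6), a class that held 4.00% of all genes. Neither library gave one for Dlx3, Lhx6 and Nkx2-1, 3 of the 9, which is close to the share of all genes, 34.5%. By library, 4 of the 9 had a promoter peak in replicate 1 and 5 in replicate 2, against 64.1% and 62.9% of all genes. Among all genes whose promoter had a peak in each library, that peak had a median value of 2.34, and the middle range from the 10th to the 90th percentile ran from 0.744 to 4.89. No value of the 9 genes reached that median. In a piece of bulk tissue, fewer cells with an open promoter and a weaker signal in each such cell cannot be told apart.

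**Figure D1:**
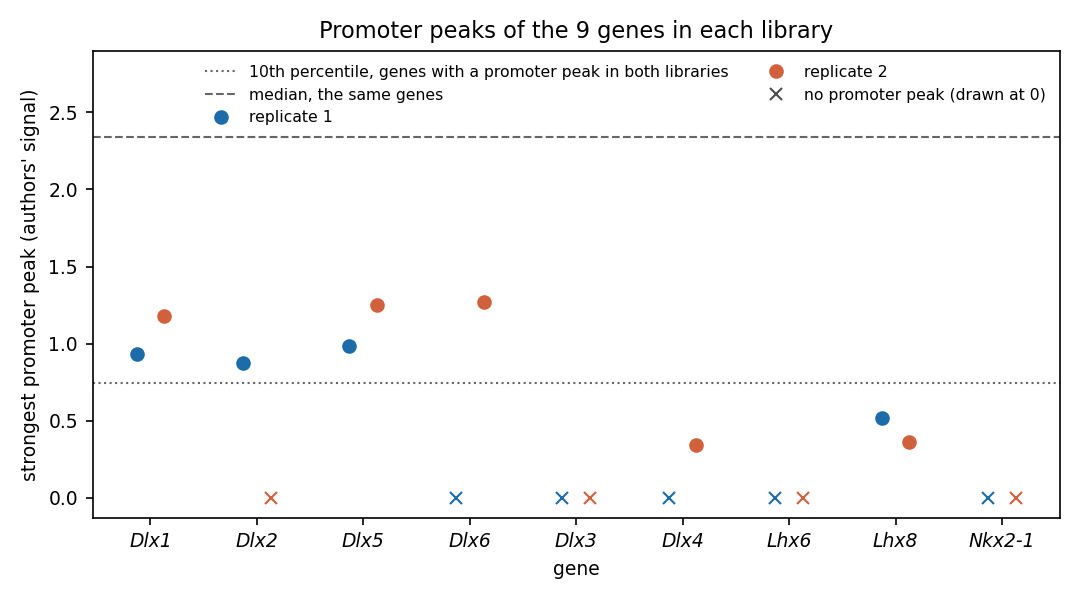
Value of the strongest promoter peak (authors' signal, linear scale) of each of the 9 genes in replicate 1 (blue) and replicate 2 (orange), with a cross at 0 where no promoter peak was called. The dashed and dotted lines are the median, 2.34, and the 10th percentile, 0.744, of all genes with promoter peaks in both libraries, and all points lie below the median.

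Among the 3 genes with a value in both libraries, Dlx5 had the highest mean, 1.12 ± 0.189 (SD, n = 2), followed by Dlx1 at 1.06 ± 0.177 (SD, n = 2) and Lhx8 at 0.440 ± 0.113 (SD, n = 2). The ranges of Dlx1 and Dlx5 overlapped, and both lay above that of Lhx8. Of the 13489 genes with promoter peaks in both libraries, 20.6% had a lower mean value than Dlx5, 19.0% a lower one than Dlx1 and 1.79% a lower one than Lhx8.

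The Dlx1 and Dlx2 locus differed most between the libraries. Dlx1 (chr2:71528113-71533981, plus strand) had a promoter value of 0.932 in replicate 1 and 1.18 in replicate 2, a log2 ratio of replicate 1 to replicate 2 of -0.34. Both values came from a region at chr2:71529550-71529860, in an untranslated exon 1.592 kb downstream of the annotated 5′ end of the gene and 0.148 kb from another annotated TSS. This was the only region of the locus, of 9, that was called in both libraries. Replicate 1 had 3 weaker promoter peaks nearer the 5′ end of Dlx1, with values of 0.458, 0.492 and 0.525, at none of which replicate 2 listed a base. Dlx2 (chr2:71543408-71546754, minus strand) had a promoter region of 867 bp in replicate 1, with a value of 0.876, 11 footprints and a lowest false discovery rate of 3.31e-05. In replicate 2 no base within 1 kb of a Dlx2 TSS was listed at any false discovery rate. The other regions of replicate 1 alone were an intronic one in Dlx2 (0.514), a pair between the genes and the strongest of the locus, 1.277 kb upstream of Dlx2 at chr2:71547941-71548120, with a value of 1.26 and 4 footprints. In all, the locus of 58642 bp held 2170 listed bases and 24 footprints in replicate 1 and 254 listed bases and 5 footprints in replicate 2. Only 1 of its 28 merged footprints joined footprints of both libraries, that of the Dlx1 region. The merged stretch is shown here whole and in capitals, as the only one of the locus with a footprint in both:
Dlx1 footprint, chr2:71529754-71529773: AGCTCCACCAGCTCATGAAT

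The stretch between Dlx1 and Dlx2 is 9426 bp long, is known for forebrain enhancers and carries the start of the antisense transcript Dlx1as. It held 2 regions, both in replicate 1 alone, with values of 0.554 and 0.509 and 1 footprint each, and 261 listed bases. Replicate 2 had neither a peak, nor a footprint, nor a listed base in it. The 2 regions are shown because they are the only open chromatin called between any of the paired genes, on the plus strand of mm10 with the footprints in capitals:
First region between Dlx1 and Dlx2, chr2:71535341-71535417: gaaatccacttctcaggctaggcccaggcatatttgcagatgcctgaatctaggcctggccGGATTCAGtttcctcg
Region next to the end of Dlx2, chr2:71543233-71543320: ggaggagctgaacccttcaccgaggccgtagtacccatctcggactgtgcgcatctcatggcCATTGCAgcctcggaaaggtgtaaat
The first lies in an intron of Dlx1as. The other is rich in CpG, with 24 CpG dinucleotides in the 300 bp at its centre against a median of 6 over all regions.

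At the Dlx5 and Dlx6 locus the agreement was closer at Dlx5 than at Dlx6. Dlx5 (chr6:6877805-6882085, minus strand) had promoter values of 0.983 and 1.25, from a region at chr6:6881857-6882179 that covers its 5′ end and had 5 footprints in replicate 1 and 3 in replicate 2. All 3 footprints of replicate 2 there overlapped one of replicate 1. A weaker peak in a coding exon (0.678) was called in replicate 1 alone, although replicate 2 listed 25 bases in it. Dlx6 (chr6:6863334-6868568, plus strand) had a promoter peak in replicate 2 only, at chr6:6862741-6863020, with a value of 1.27, 2 footprints and a lowest false discovery rate of 1.36e-05. Replicate 1 listed no base within 1 kb of a Dlx6 TSS. The strongest region of the locus was again one of replicate 1 alone, 3.016 kb upstream of Dlx5, with a value of 1.32 and 2 footprints.

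The upstream sequences of Dlx5 and Dlx6 are shown because each holds a footprint upstream of the gene's first base. Both are on the plus strand of mm10 with footprints of either library in capitals, and the Dlx5 sequence begins just upstream of the gene's first base:
Dlx5 upstream part of the promoter region, chr6:6882086-6882179: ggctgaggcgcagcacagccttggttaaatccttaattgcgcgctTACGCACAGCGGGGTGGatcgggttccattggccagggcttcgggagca
Dlx6 promoter region, chr6:6862741-6863020: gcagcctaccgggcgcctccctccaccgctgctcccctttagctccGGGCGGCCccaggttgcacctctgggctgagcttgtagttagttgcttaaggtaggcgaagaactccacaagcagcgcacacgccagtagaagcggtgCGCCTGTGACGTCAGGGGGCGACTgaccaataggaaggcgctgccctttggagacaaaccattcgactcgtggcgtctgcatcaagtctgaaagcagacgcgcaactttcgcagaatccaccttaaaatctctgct
The capitals in the Dlx5 line, 17 bases, join overlapping footprints of the 2 libraries, whose bounds differed. The longer footprint of the Dlx6 region, in replicate 2, spans the letters TGACGTCA, the palindromic cyclic AMP response element. Searched in the 300 bp at the centre of each region, these letters were present in 1 of the 26 regions of the 6 loci, this one, and in 0.861% of all 109538 regions of the genome. The search was chosen after the footprints were seen, so the match here was known beforehand and the comparison supports nothing. A match of letters is a description and not a bound site.

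Between Dlx5 and Dlx6 (9236 bp, known for enhancers of both genes and holding a start of the noncoding RNA Dlx6os1) no peak, footprint or listed base was found in either library. None was found in the 15150 bp between Dlx3 and Dlx4 either.

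The strongest shared regions of the 6 loci lay upstream of Dlx3, outside its promoter window. Dlx3 (chr11:95120119-95125296, plus strand) had no promoter peak and no listed base within 1 kb of its TSS in either library. A region 1.418 kb upstream had values of 1.68 and 1.07, another 2.958 kb upstream 1.44 and 1.69, and another 13.078 kb upstream 1.50 and 1.31. These 3 carried 6 of the 12 footprints that the libraries shared over all loci. They also held the lowest false discovery rates of the 6 loci, 2.20e-12 in replicate 1 at the nearest region and 3.97e-13 in replicate 2 at the middle one. Dlx4 (chr11:95140447-95146263, minus strand) had 1 promoter peak, in replicate 2, with a value of 0.343 and 41 listed bases, in a coding exon that also lies within 1 kb of the start of the antisense RNA Dlx4os. Because these genes overlap on opposite strands, a peak here cannot be assigned to either.

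Lhx6 (chr2:36081953-36105408, minus strand) stood apart from the others in having no open chromatin called at all. Its locus of 63456 bp held no peak and no footprint in either library, and the listed bases were 0 in replicate 1 and 2 in replicate 2, at a false discovery rate of 0.0469. Of all protein-coding genes, 13.2% had no region in the gene body and 20 kb on either side. Among the 2172 genes of similar CpG content at the 5′ end, 17 (0.783%) had none.

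Lhx8 (chr3:154306294-154330659, minus strand) had promoter values of 0.520 in replicate 1 and 0.360 in replicate 2, which came from different regions. The intronic region 1.146 kb downstream of the 5′ end had values of 0.520 and 0.343, and the region only 0.302 kb downstream of the 5′ end had 0.407 and 0.360. The second region, and a peak of replicate 1 alone just upstream (0.384), also lie within 1 kb of a start of the noncoding gene AI606473. None of the promoter peaks of Lhx8 was in the shorter, stricter peak list of its library. The strongest region of the locus lay beyond the 3′ end of the gene at chr3:154294156-154294469, with values of 0.452 and 0.634 and 3 footprints in each library.

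Nkx2-1 (chr12:56531958-56536908, minus strand) had no promoter peak and no listed base within 1 kb of a TSS in either library. Its locus held 2 regions. A coding exon had a peak in replicate 2 alone (0.497), in the sequence richest in CpG of the 26 regions, with 33 CpG dinucleotides in 300 bp. A region 4.363 kb upstream of the gene, in an exon of the antisense gene Gm26973, had values of 1.45 in replicate 1 and 0.994 in replicate 2 and 3 footprints in each.

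**Figure D2:**
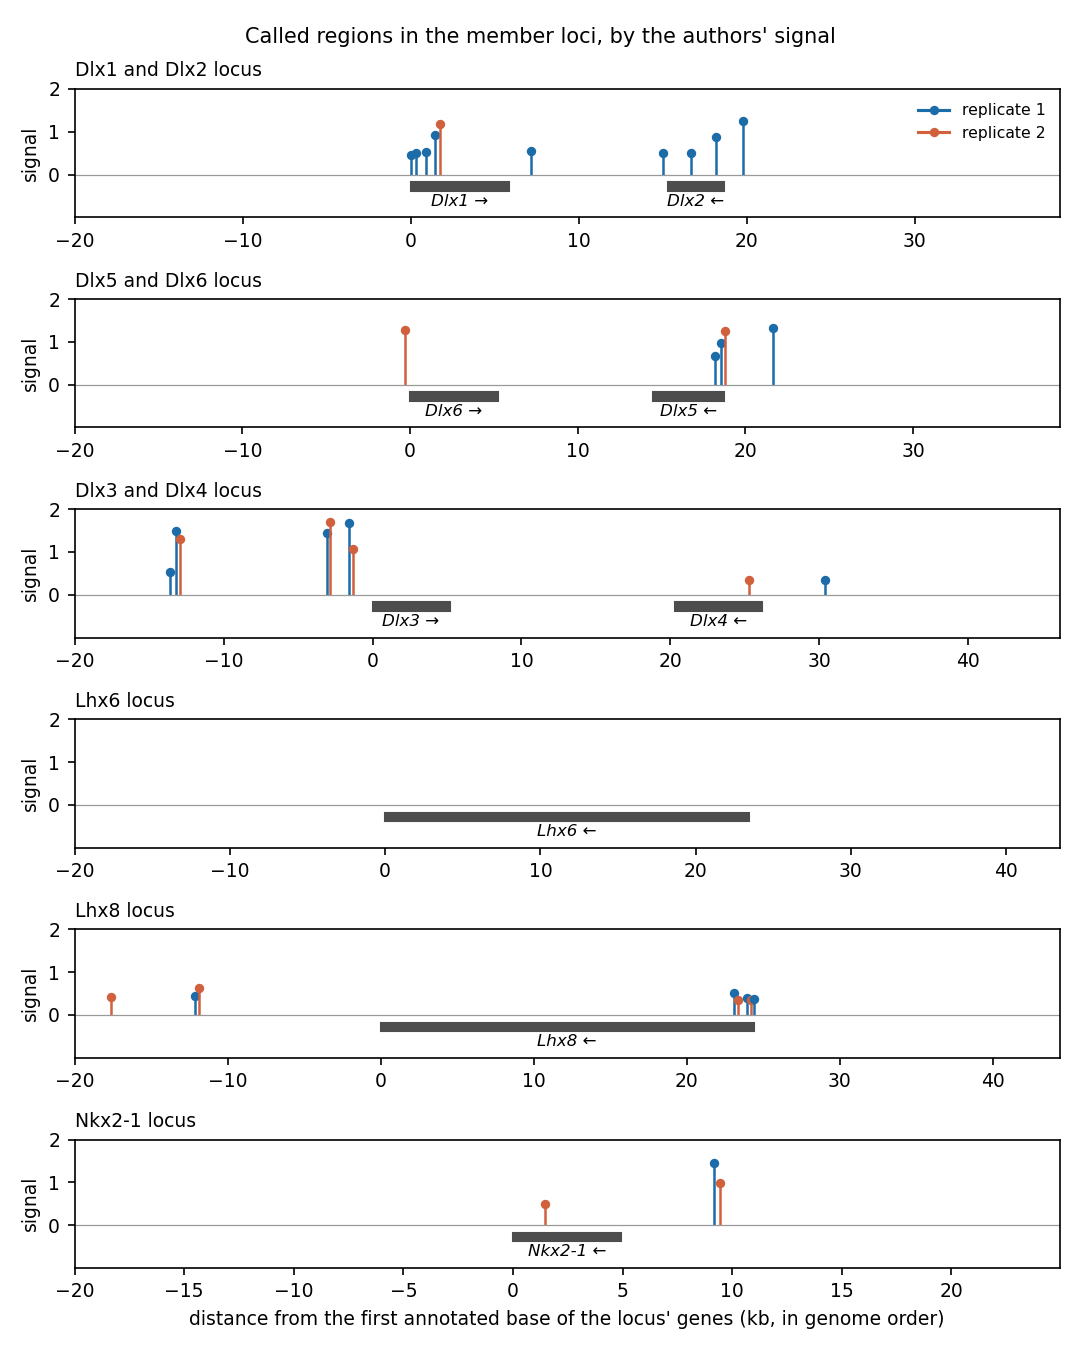
Regions called in the 6 loci, by position (kb from the first annotated base of the genes of the locus, in genome order) and value (authors' signal) in replicate 1 (blue) and replicate 2 (orange), with a region called in both drawn as 2 neighbouring stems and gene bodies as grey bars with the direction of transcription. The 9 regions of the Dlx1 and Dlx2 locus are blue but for 1 pair, and the Lhx6 panel is empty.

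Over the 6 loci, 356312 bp in all, the merged peaks made up 26 regions, and both libraries called 9 of them (34.6%), against 53.6% of all regions of the genome. Replicate 1 had 22 of the 26 and replicate 2 had 13. Regions of replicate 1 alone numbered 13 and those of replicate 2 alone 4, where the genome had 22.3% and 24.1%. Of the 13 regions of replicate 1 alone, 8 were at Dlx1 and Dlx2, so that without this locus the loci held 5 of replicate 1 alone and 4 of replicate 2 alone. The member regions were rich in CpG, with a median of 12.5 dinucleotides in 300 bp, and of the 24777 regions of the genome with at least that many, 74.8% were called in both libraries, 14.5% in replicate 1 alone and 10.7% in replicate 2 alone. In 1 of the 13 regions of replicate 1 alone did replicate 2 list any base, and replicate 1 listed none in the 4 regions of replicate 2 alone. Of the 9 regions called in both libraries, none differed by more than 2-fold in value. Only 1.75% of all shared regions did, so none among 9 does not set these loci apart. The largest log2 ratio was 0.65, 1.418 kb upstream of Dlx3. Over all shared regions of the genome the log2 ratio had an SD of 0.39.

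The density of regions was 7.30 per 100 kb over the 6 loci. Counted for each gene with 20 kb on either side, the median of the 9 genes was 8.84 per 100 kb against 6.43 over all protein-coding genes, with Dlx2 (20.8) and Dlx1 (19.6) highest and Dlx4 (4.37), Nkx2-1 (4.45) and Lhx6 (0) below the genome's median. The genes' windows overlap within a pair, so these values are not independent.

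Of the 26 regions, 13 lay outside the 1 kb around a member TSS. The footprints of the strongest of these looked alike, and a search was chosen for that reason. Its target was a 14-letter consensus of CTCF, a zinc-finger protein that binds at chromatin loop ends. With at most 2 mismatches on either strand, it was in the 300 bp at the centre of 6 of the 26 regions (23.1%). Of all regions of the genome 27.5% had it, so at this setting the loci held it about as often as regions of any position elsewhere. All 6 were among the 13 away from promoters, and in each the match overlapped a footprint. Their highest values ran from 1.26 to 1.69, while the 7 regions away from promoters without a match ran from 0.345 to 0.634. Since the footprints of the strongest regions led to the search, this gap describes the choice and supports nothing. It also holds only at 2 mismatches, because with fewer allowed the regions upstream of Dlx5 (1.32) and nearest to Dlx3 (1.68) have no match. Of 78977 regions away from protein-coding promoters, 29.3% had a match, with 62.8% among those of 1.26 or more and 18.3% among those of 0.634 or less. An exact match was present in 4 of the 26 (15.4%), against 3.88% of all regions, and a match with at most 1 mismatch in the same 4, against 12.4%. A form of the CTCF motif with other letters left free, from the list of general motifs, was in 1 of the 26 (3.85%), the farthest Dlx3 region, against 1.36%. Binding of CTCF was not measured here.

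These 6 regions are printed to show the match beside its footprint, on the plus strand of mm10, with the footprints of either library in capitals:
Upstream of Dlx2, chr2:71547941-71548120: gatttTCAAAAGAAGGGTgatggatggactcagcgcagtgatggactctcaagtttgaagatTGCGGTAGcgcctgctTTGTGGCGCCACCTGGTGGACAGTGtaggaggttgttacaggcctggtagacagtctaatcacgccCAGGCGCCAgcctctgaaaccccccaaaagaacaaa
Upstream of Dlx5, chr6:6885021-6885180: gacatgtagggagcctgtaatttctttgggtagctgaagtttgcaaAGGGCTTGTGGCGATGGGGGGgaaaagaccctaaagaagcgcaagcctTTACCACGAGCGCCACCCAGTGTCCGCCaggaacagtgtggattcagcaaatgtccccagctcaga
Upstream of Dlx3, farthest, chr11:95106941-95107140: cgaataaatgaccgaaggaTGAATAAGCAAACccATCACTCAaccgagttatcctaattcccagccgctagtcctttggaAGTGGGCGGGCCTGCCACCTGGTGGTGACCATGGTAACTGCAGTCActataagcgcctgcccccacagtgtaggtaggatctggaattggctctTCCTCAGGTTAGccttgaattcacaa
Upstream of Dlx3, middle, chr11:95117061-95117260: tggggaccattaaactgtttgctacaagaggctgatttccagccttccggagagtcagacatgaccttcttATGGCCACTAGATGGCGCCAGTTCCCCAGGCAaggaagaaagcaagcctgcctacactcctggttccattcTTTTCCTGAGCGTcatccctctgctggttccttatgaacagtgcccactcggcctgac
Upstream of Dlx3, nearest, chr11:95118601-95118800: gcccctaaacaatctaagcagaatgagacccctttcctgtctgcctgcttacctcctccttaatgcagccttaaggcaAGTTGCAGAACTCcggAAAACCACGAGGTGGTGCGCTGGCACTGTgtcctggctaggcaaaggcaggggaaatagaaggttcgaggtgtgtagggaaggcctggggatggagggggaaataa
Upstream of Nkx2-1, chr12:56541161-56541380: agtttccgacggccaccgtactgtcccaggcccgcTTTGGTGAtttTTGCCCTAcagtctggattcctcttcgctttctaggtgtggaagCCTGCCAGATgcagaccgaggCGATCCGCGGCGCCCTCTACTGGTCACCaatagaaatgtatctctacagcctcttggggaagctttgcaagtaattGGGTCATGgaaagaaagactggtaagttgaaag
Read on the strand of the consensus, the match was CCACCAGGTGGCGC upstream of Dlx2, CCACCAGGTGGCAG in the farthest Dlx3 region, CCACTAGATGGCGC in the middle one and CCAGTAGAGGGCGC upstream of Nkx2-1, each with 0 mismatches. It was ACACTGGGTGGCGC upstream of Dlx5 and CCACGAGGTGGTGC in the nearest Dlx3 region, each with 2. A footprint covered all 14 letters wherever a library had a peak, except upstream of Nkx2-1 in replicate 2, where it covered 13. The regions at Dlx3 and Nkx2-1 were called in both libraries, and those upstream of Dlx2 and Dlx5 in replicate 1 alone.

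**Figure D3:**
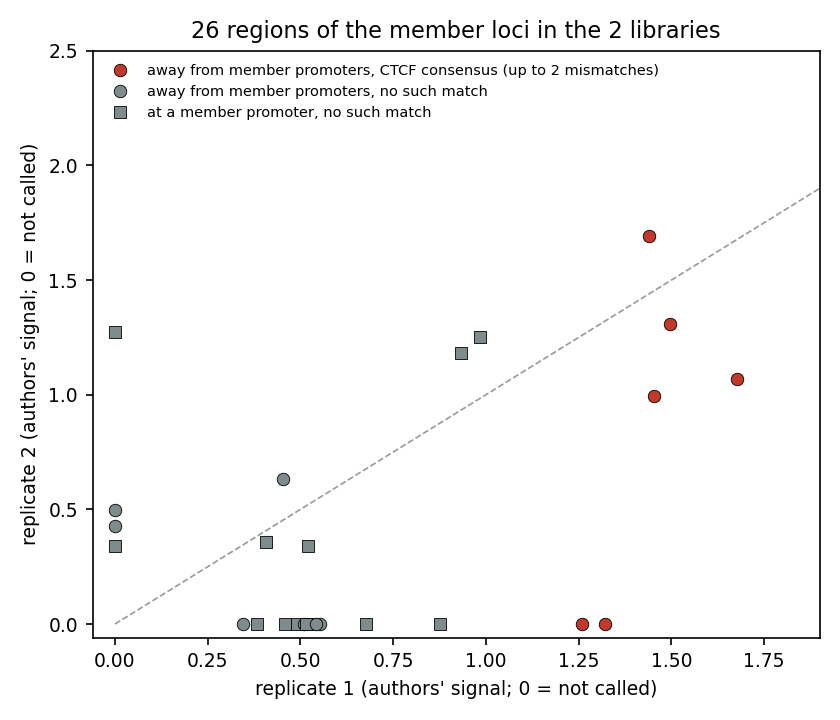
Value (authors' signal) of each of the 26 regions in replicate 1 (horizontal axis) and replicate 2 (vertical axis), with 0 where a library had no peak and a dashed line of equality. Red circles are the 6 regions with the CTCF consensus, which reach 1.26 or more in at least 1 library, grey circles the other 7 regions away from member promoters and squares the 13 at member promoters.

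Other motifs were searched on both strands in the same 300 bp. TAATTA, the core bound by Dlx and LIM-homeodomain proteins, was in 4 of the 26 regions (15.4%), all at Dlx1 and Dlx2 and in replicate 1 alone, against 4.62% of all regions. The related TAATTG was in 7.69% against 7.04%, the NK-2 core CACTTG in 19.2% against 17.5%, the proneural core CAGCTG in 15.4% against 22.8%, the AP-1 core TGANTCA in 15.4% against 12.5%, and the SP and KLF core GGGCGG in 30.8% against 21.6%. The palindromic NFI motif was in none, against 0.0813%. When only the peak as called was searched, the share of the 26 fell to 7.69% for TAATTA and to 3.85% for CACTTG and TGANTCA. It also fell to 23.1% for the SP and KLF core and to 11.5% for the proneural core. For the other motifs it did not change. Many of the 26 regions are narrower than 300 bp, down to 61 bp, so less sequence was searched. No share of all regions was counted in this way, so these falls have no background to be read against. RefSeq promoter sequences of 300 bp around a start were matched for Dlx1, Dlx2, Lhx6, Lhx8 and Nkx2-1. GGGCGG was in 5 of their 7 promoters, against 35.7% of all promoters in that table.

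Except at Dlx1 and Lhx8, the promoters of these genes held more CpG than the median of 41 over protein-coding genes. A high CpG content goes with open promoters across the genome. In the 1 kb around the 5′ end, Lhx6 had 67 CpG dinucleotides and Dlx2 72, and among the genes with 64 to 75, 93.1% had promoter peaks in both libraries and 4.05% in neither. Dlx3 had 60, Dlx4 59, Dlx5 55 and Dlx6 63, and among the genes with 54 to 63 these shares were 91.1% and 5.94%. Nkx2-1 had 48, and among the genes with 42 to 53 they were 87.6% and 8.65%. Dlx1 with 31 and Lhx8 with 37 were the poorest in CpG, and among the genes with 27 to 41 the shares were 71.1% and 21.8%. These 2 are among the 3 genes with promoter peaks in both libraries. The Dlx1 region called in both lay 1.592 kb downstream of that 5′ end, near another TSS, and held 29 CpG dinucleotides in 300 bp. With the 5′ end as the only TSS, Dlx1 had a promoter peak in replicate 1 alone.

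**Figure D4:**
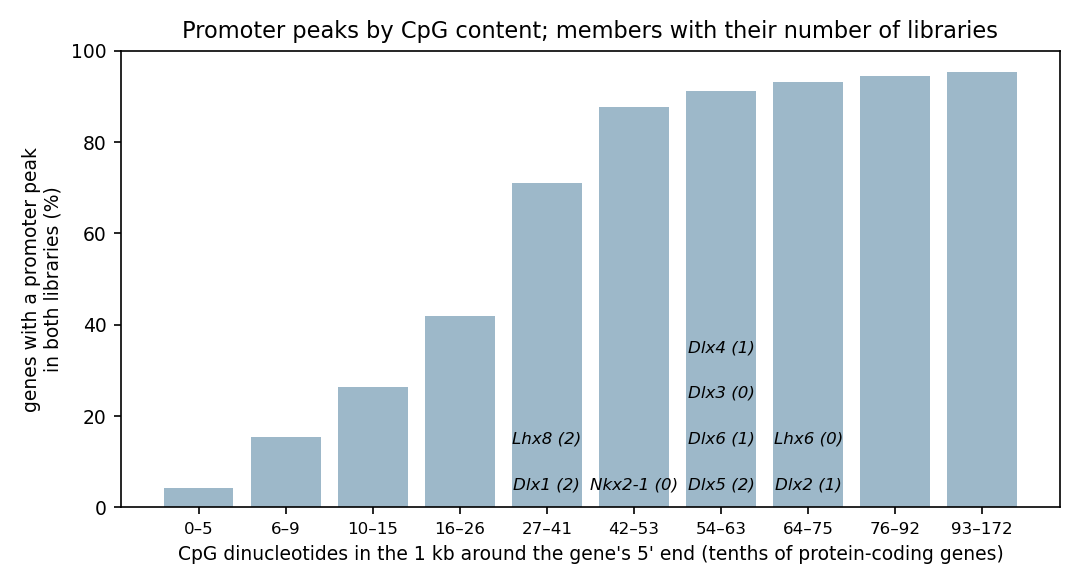
Share (%) of protein-coding genes with promoter peaks in both libraries, in 10 bands (1840 to 2618 genes each) by the count of CpG dinucleotides in the 1 kb around the 5′ end, with each of the 9 genes written in its band and, in brackets, the number of libraries in which it had a promoter peak. The bars rise from 4.24% to 95.3%, and the band of Dlx3, Dlx4, Dlx5 and Dlx6 stands at 91.1%.

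Promoter peaks at other genes of interneuron specification were counted from lists. Of 20 other regulators of these neurons, 16 (80.0%) had a promoter peak in both libraries, against 33.3% of the 9 genes and 61.5% of all genes, with a median value of 0.965. High values were those of the LIM-only gene Lmo4 at 2.94 ± 0.584, of Maf, a leucine zipper factor of interneurons from the medial ganglionic eminence, at 1.31 ± 0.00969, and of Sox6, which acts after Lhx6, at 1.28 ± 0.481 (SD, n = 2). Sp9 (0.982) and Nr2f1 (0.794) had a promoter peak in replicate 2 only, and Gsx2 and Npas1 had none. Of 18 genes that lie downstream of these factors or mark the neurons they specify, 15 (83.3%) had a promoter peak in both, with a median of 0.699. They included the chemokine receptor gene Ackr3 at 1.63 ± 0.120, the semaphorin receptor gene Nrp2 at 1.49 ± 0.0954 and Gad1, whose enzyme makes GABA, at 1.03 ± 0.273 (SD, n = 2). Sst, Vip and the acetylcholine synthesis gene Chat had none.

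Of 25 homeobox relatives, 7 (28.0%) had promoter peaks in both libraries, 4 in 1 library and 14 in neither, with a median value of 0.784. Over all protein-coding genes these shares were 61.5%, 4.00% and 34.5%, and of the 9 genes 3 fell in each class. Of 10 LIM-homeodomain genes, Lhx2, a factor of cortical progenitors, had values of 1.72 ± 0.149, Isl1, which is also among the regulators above, of 0.591 ± 0.0847 and Lhx3 of 0.583 ± 0.113 (SD, n = 2). Lhx4 (0.441), Lhx5 (0.627) and Lhx9 (0.537) had a promoter peak in replicate 1 only, and Lhx1, Isl2, Lmx1a and Lmx1b had none. Of 8 NK genes none had one in both, Nkx6-2 had one in replicate 2 (0.605), and Nkx2-2, Nkx2-3, Nkx2-4, Nkx2-5, Nkx2-6, Nkx2-9 and Nkx6-1 had none. Msx1 (0.784 ± 0.0504) and Msx2 (0.687 ± 0.0292), close relatives of the Dlx family, had one in both libraries and Msx3 in neither. Of the forebrain genes Emx1 (1.09 ± 0.0682) and Emx2 (0.852 ± 0.0981) had one in both (SD, n = 2), and Vax1 and Vax2 in neither.

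Markers of the labelled tissue were open, with a promoter peak in both libraries for 7 of 7 markers of excitatory cortical neurons (summed values 10.9 in replicate 1 and 11.3 in replicate 2) and 5 of 5 of inhibitory neurons (4.11 and 3.88). Listed markers of populations outside the cortex that also use some of the 9 genes had promoter peaks too. Of all protein-coding genes, 61.5% had promoter peaks in both libraries, so such counts do not show which cells were present. Markers of striatal neurons were open in 7 of 8 cases (11.0 and 12.3), without Drd2, and those of the olfactory bulb and migrating neuroblasts in 5 of 6 (6.37 and 7.39), without Th. Markers of basal forebrain cholinergic neurons were open in 2 of 5 cases (0.972 and 0.896), with none at Chat, Slc18a3 and Gbx1. Hypothalamic ones were open in 2 of 6 (4.73 and 5.30), with none at Pomc, Otp and Avp and Sim1 in replicate 1 only. The hypothalamic sum of replicate 1 includes the value of Sim1 (0.390), which that of replicate 2 lacks. From which cells the peaks of the 9 genes came was not tested.

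Other genes that start inside the loci had little open chromatin. Dlx1as had a promoter peak in replicate 1 only (0.492), Dlx4os in replicate 2 only (0.343) and AI606473 in both (0.407 and 0.360), all within regions already given for Dlx1, Dlx4 and Lhx8. No promoter peak was called for Dlx6os1, Dlx6os2, Gm44094, Gm43764, Gm27953, Sfta3-ps, Gm26973 or Gm25760. The protein-coding gene Metap1d, which has starts in the flank of Dlx1, had its strongest promoter peak, 3.03 and 4.49, outside the locus.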

How the data were processed

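DNase-seq of 2 frontal cortex libraries was analysed as deposited. Per the readme files deposited beside the lists, everything is on mm10 and each list was made from that library's own alignment, so nothing was pooled. Peak lists carry the authors' signal per peak, normalised for read depth. A deposited table gives, by position, a q-value (false discovery rate) for the rate of cutting. The authors' footprint lists carry a constant score of 0.01. Not given in the sources used here were the aligner, the callers and the depth of sequencing.

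The longer of 2 peak lists per library was used, the shorter as an alternative. Peaks of both libraries were merged at an overlap of at least 1 bp. Genes and sequences came from GENCODE vM21 and GRCm38.p6, the C57BL/6J reference, so CAST/EiJ alleles are not shown. Python 3.11.15, pandas 2.3.3 and pysam 0.24.0 were used, and the scripts were tested on simulated data. With 1 group there was no test between groups, and SDs are over 2 libraries.

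The members and lists were chosen with earlier results of these data known, and the CTCF and TGACGTCA searches after footprints were seen. Named were the 9 genes, up to 4 of each list with the largest promoter value, each list gene with a promoter peak in 1 library or none, and genes starting in the loci, except that some list genes are not reported here by name. Of the markers, only those without a promoter peak in both libraries were named. RefSeq promoters were matched for 5 of the 9.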

Additional observations from a re-analysis of the deposited data

How the results depend on the processing

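On the shorter, stricter peak lists, 1 of the 9 genes (Dlx1) had promoter peaks in both libraries in place of 3, and the loci held 11 regions in place of 26 and 5 shared regions in place of 9. Leaving out a library left 4 to 5 genes with a promoter peak in the other, and 13 to 22 regions, 13 of them without replicate 1. With 50 kb on either side there were 17 shared regions and 29 shared footprints in place of 12, and 3 regions, 2 of them shared, appeared around Lhx6. Allowing 3 mismatches gave 20 regions with the CTCF consensus (76.9%, against 67.2% of all regions), and allowing 1 gave 4 (15.4%, against 12.4%). The gap in value between regions with and without the consensus was present at 2 mismatches but not at 0, 1 or 3. These mismatch settings were chosen after seeing the data. With only the annotated 5′ end of each gene as TSS, Dlx1 kept a value of 0.525 in replicate 1 alone and 2 genes had promoter peaks in both libraries, and with promoters of 2.5 kb on either side Dlx3 gained values of 1.68 and 1.07. Of 88 alternative values, 70 were counted as unchanged and 18 as moved. Unchanged meant within 1.5 times for a count, within the SD for a value from 2 libraries, and identical for a value from 1 library. Leaving out a library cannot move a mean promoter value of 2 libraries past their SD. It also cannot move a promoter value from the library that is kept, so these cases say nothing about stability. Not among the 88 are promoter values that an alternative left without a peak. They are those of Dlx4 and Lhx8 on the shorter lists, Dlx2 without replicate 1, and Dlx4 and Dlx6 without replicate 2. No paired analysis was possible because there is 1 group. Without the sequencing depth, a peak missed in 1 library cannot be told apart from a weaker one.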
